A study of Mus musculus with 9 samples.

Results

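A set of 10 keratin genes of the epidermis, the outer layer of skin, were followed through whole ear skin of C57BL/6 mice. They were chosen by symbol: the basal pair Krt5 and Krt14, the suprabasal keratins Krt1, Krt10, Krt2 and Krt77, and the wound-type keratins Krt6a, Krt6b, Krt16 and Krt17. All 10 were among the 25124 genes listed, and all 10 passed the expression filter of at least 1 TPM in at least 4 libraries. The study profiled 9 libraries by RNA sequencing. In 5 libraries, ears had been swabbed every other day with Staphylococcus epidermidis strain LM087, a bacterium of the skin surface, and were sampled on day 8. In the other 4 the mice had the same bacterium and also anti-CTLA-4, an antibody that blocks a brake on T cells and is used as a checkpoint inhibitor. Every library therefore carries the bacterium, and skin without it, or with the antibody alone, was not analysed here. The dose and clone of the antibody and the age and sex of the mice were not given in the sources used here. The labels do not say that each library came from its own animal, so p-values reflect only how these samples vary, and that variation may be technical.

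Keratins build the intermediate filaments of epithelial cells, and each filament needs a type I and a type II keratin. Dividing keratinocytes of the basal layer make Krt14 (type I) with Krt5 (type II). Cells that leave this layer switch to Krt10 (type I) with Krt1 (type II), joined later by Krt2, which is prominent in mouse ear epidermis, and Krt77. Krt6a and Krt6b (type II) with Krt16 and Krt17 (type I) are scarce in resting epidermis between hairs, are also made in the hair follicle, and are known for their appearance in wounded, inflamed or hyperproliferative epidermis. The type I genes lie together on chromosome 11 and the type II genes on chromosome 15.

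The 2 genes most alike in sequence are Krt6a and Krt6b. Their coding sequences, of 1659 and 1662 bases in GENCODE M21, were identical at 97.6% of aligned positions, and the longest identical run was 280 bases. The first 120 coding bases of each, from the first exon on the minus strand of GRCm38 (Krt6a at chr15:101694129-101694248, Krt6b at chr15:101680104-101680223), are shown as an example of this likeness. Capitals mark the 2 positions that differ.
Krt6a: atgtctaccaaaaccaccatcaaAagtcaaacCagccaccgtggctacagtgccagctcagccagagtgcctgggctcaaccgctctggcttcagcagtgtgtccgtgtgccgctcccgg
Krt6b: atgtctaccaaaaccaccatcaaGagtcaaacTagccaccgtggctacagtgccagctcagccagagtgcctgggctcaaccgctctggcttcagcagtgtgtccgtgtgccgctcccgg

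How far this likeness reaches was measured with windows of 75 bases, the number of sequencing cycles. Of all such windows in the longest transcript, 56.0% of Krt6a and 39.6% of Krt6b also occurred in a transcript of another gene. For both, those genes included the other Krt6 gene, Krt5 and the predicted gene Gm5478. The share was 28.9% for Krt16, whose windows occurred in Krt14 and the predicted gene Gm11597. It was 7.77% for Krt5, 5.91% for Krt14 and 0.99% for Krt10, and 0 for Krt1, Krt2, Krt17 and Krt77. The handling of reads that match several genes was not given in the sources used here. The separate values of Krt6a and Krt6b, and in part of Krt16, are uncertain.

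The keratins took very different shares of the transcriptome. TPM (transcript abundance scaled to gene length and to a fixed library total) is a level per length; levels of different genes can thus be compared. Krt10 and Krt2 were at ranks 4 and 6 of all listed genes by mean TPM, and Krt14 and Krt5 were at ranks 10 and 12. Krt1 was at rank 31, and Krt16, Krt17, Krt6b, Krt6a and Krt77 at ranks 90, 218, 383, 408 and 5811. Together the 10 genes held between 4.48% and 5.77% of the listed TPM with the bacterium alone and between 3.81% and 4.64% with anti-CTLA-4, ranges that overlapped. Without the ribosomal entries Rn45s and Mir6236 in the total, the shares were 6.64% to 8.53% and 6.37% to 6.85%, which also overlapped.

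The comparison asks how these keratins differ when the checkpoint is blocked in skin carrying the bacterium. Krt1 rose and Krt2 fell with anti-CTLA-4, and the other 8 keratins did not pass the test (limma on log2(TPM + 1), Benjamini-Hochberg adjusted p under 0.05 over 15704 genes). One call upward in 10 stands beside 7.16% of all genes tested, and 1 call downward beside 4.48%, so the number of calls is near the background. The 2 groups of libraries did not overlap for 5 of the 10 (Krt1, Krt2, Krt10, Krt6a and Krt6b), against 14.4% of all genes tested. The median log2 fold change was 0.34 over the 10 keratins and -0.014 over all genes tested. Over all genes the fit called 1124 higher and 704 lower, and the split was 1314 and 1429 after quantile normalization.

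**Figure D1:**
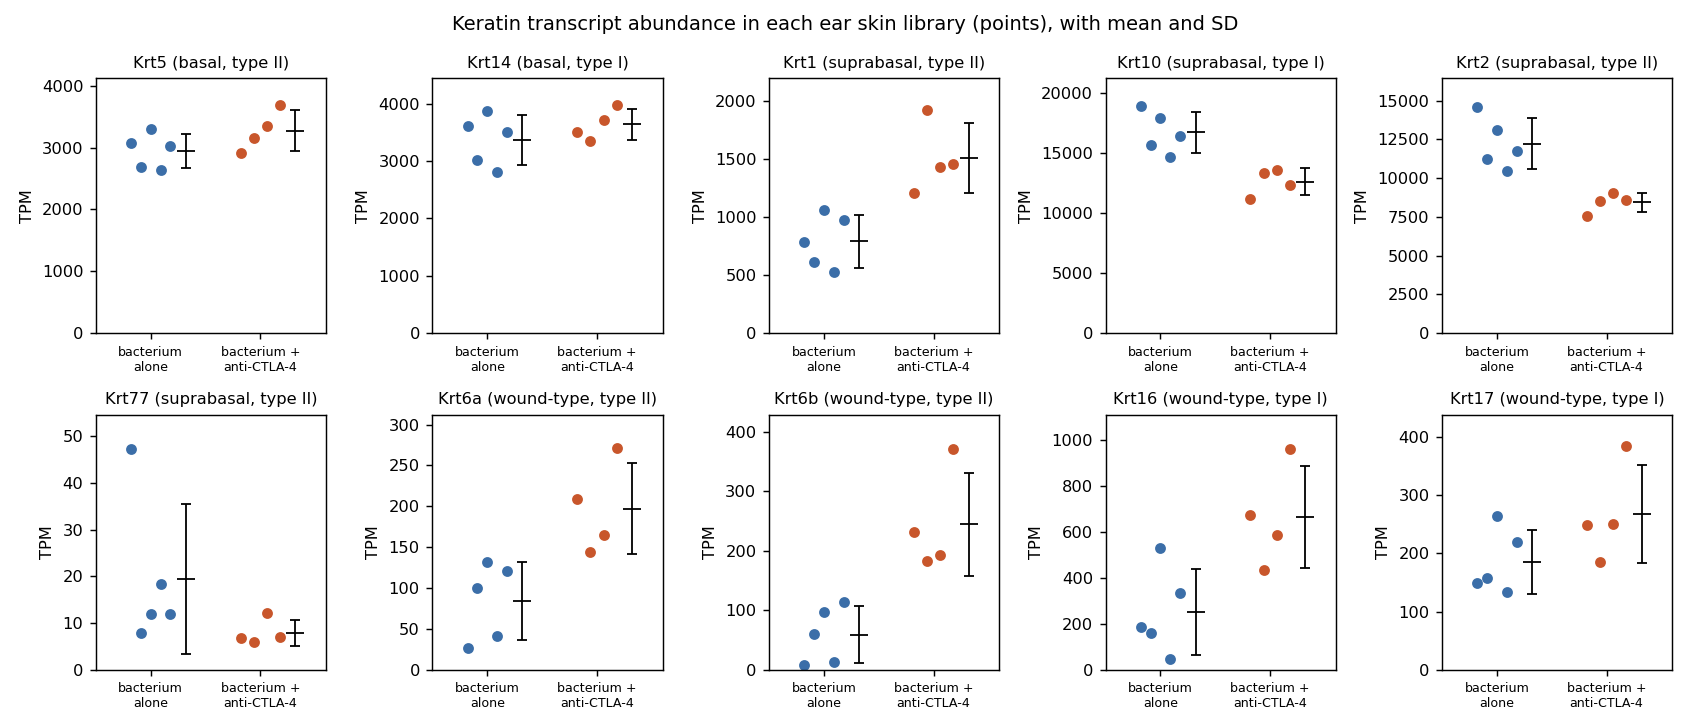
TPM (y axis, linear, starting at 0) of each of the 10 keratins in the 5 libraries of the bacterium alone (blue) and the 4 with anti-CTLA-4 (orange), with the mean and SD of each group in black. Krt1 sits higher and Krt2 and Krt10 sit lower in all 4 anti-CTLA-4 libraries than in any library of the bacterium alone, while Krt5 and Krt14 overlap.

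The basal pair overlapped between the groups, and neither gene passed the test. Krt5 (mm10 chromosome 15, 101707070 to 101712905, minus strand, 9 exons) had 3083, 2686, 3305, 2631 and 3026 TPM in replicates 1 to 5 of the bacterium alone and 2916, 3152, 3347 and 3693 TPM in replicates 1 to 4 of anti-CTLA-4. The ranges overlapped, with means of 2946 ± 283 and 3277 ± 329 TPM (SD, n = 5 and n = 4), and the log2 fold change was 0.15 (SE 0.11; limma adjusted p = 0.410). Krt14 (chromosome 11, 100203163 to 100206030, minus strand, 8 exons) had 3619, 3024, 3872, 2820 and 3518 TPM with the bacterium alone and 3513, 3350, 3723 and 3983 TPM with anti-CTLA-4. The anti-CTLA-4 libraries lay in the upper part of a shared range (log2 fold change 0.12 ± 0.12, SE; limma adjusted p = 0.574). Quantile normalization gave Krt14 a log2 fold change of -0.049, the opposite sign. The ratio of Krt14 to its partner Krt5 within a library stayed between 1.06 and 1.20 in all 9 libraries.

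The abundant suprabasal keratins Krt10 and Krt2 were lower with anti-CTLA-4, by about 1.32-fold and 1.45-fold of mean TPM, and only Krt2 passed the test. Krt2 (chromosome 15, 101810690 to 101818169, minus strand, 9 exons) had 14584, 11237, 13118, 10441 and 11735 TPM with the bacterium alone and 7581, 8529, 9010 and 8584 TPM with anti-CTLA-4. Every anti-CTLA-4 library was below every library of the bacterium alone. Krt2 fell by 0.53 on the log2 scale (SE 0.13; limma adjusted p = 0.0324), with means of 12223 ± 1640 and 8426 ± 603 TPM (SD, n = 5 and n = 4). The call is a narrow one: it held when replicate 4 of the bacterium alone was missing (limma adjusted p = 0.0353) and ended when any of the other 8 libraries was left out (limma adjusted p of up to 0.0723), in each case with a negative log2 fold change. Quantile normalization gave Krt2 a log2 fold change of -0.17 (limma adjusted p = 0.120), and the adjusted p was 0.514 with no expression filter and 0.0609 on protein-coding genes alone.

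Krt10 (chromosome 11, 99385257 to 99389364, minus strand, 8 exons), the type I partner of Krt1, had 18869, 15646, 17879, 14682 and 16352 TPM with the bacterium alone. With anti-CTLA-4 it had 11167, 13347, 13583 and 12301 TPM. These ranges did not overlap either, and the log2 fold change was -0.40 (SE 0.13; limma adjusted p = 0.0809). Limma called it when the variances were not made to follow the mean expression (adjusted p = 0.0237) and when only genes of at least 5 TPM were tested (adjusted p = 0.0181), and quantile normalization gave it a log2 fold change of 0.016. For each gene on its own, exact permutation (two-sided, 126 arrangements) gave an unadjusted p of 0.00794 for Krt10 and for Krt2, the smallest it can give, and 0.0159 for Krt1. Groups without overlap, as in 14.4% of all genes tested, give small values in this test.

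Krt1, the type II partner of Krt10, rose. Krt1 (chromosome 15, 101845427 to 101850786, minus strand, 9 exons) had 787, 610, 1062, 527 and 975 TPM with the bacterium alone and 1210, 1927, 1430 and 1459 TPM with anti-CTLA-4. All 4 anti-CTLA-4 libraries were above all 5 others. Krt1 rose, with means of 792 ± 229 and of 1506 ± 301 TPM (SD, n = 5 and n = 4) and a log2 fold change of 0.96 (SE 0.22; limma adjusted p = 0.0245). With 1 library left out at a time, the call held in 5 of 9 cases. It ended when replicate 2 of the bacterium alone, or replicate 2, 3 or 4 of anti-CTLA-4, was missing, with limma adjusted p-values between 0.0525 and 0.0621. Its log2 fold change was positive in every alternative run.

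The partners of one filament thus had fold changes of opposite sign, of which that of Krt1 passed the test. The ratio of Krt10 to Krt1 TPM was 24.0, 25.7, 16.8, 27.9 and 16.8 in the libraries of the bacterium alone and 9.23, 6.93, 9.50 and 8.43 in those with anti-CTLA-4. The groups were apart, with means of 22.2 ± 5.14 and 8.52 ± 1.15 (SD, n = 5 and n = 4). This follows from the separation of each gene in opposite directions and adds no further evidence, although a ratio within a library does not depend on how that library was scaled. The ratio of Krt10 to Krt2 was also apart, by less: it lay between 1.29 and 1.41 with the bacterium alone and between 1.43 and 1.57 with anti-CTLA-4. In bulk skin, fewer cells of a type and less RNA per cell cannot be told apart.

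Krt77 (chromosome 15, 101858732 to 101869705, minus strand, 9 exons), a further suprabasal type II keratin, was scarce. It had 47.3, 7.94, 11.9, 18.3 and 11.8 TPM with the bacterium alone and 6.77, 5.93, 12.1 and 6.98 TPM with anti-CTLA-4. Replicate 1 of the bacterium alone stood far above the rest, and the ranges overlapped (log2 fold change -0.96 ± 0.44, SE; limma adjusted p = 0.196). Without that library the log2 fold change was -0.59.

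Promoter sequences were at hand for 5 of the 10 genes. The 250 bases before the RefSeq gene start are shown for Krt10 and Krt2, the suprabasal keratins that were lower in every anti-CTLA-4 library, and for the basal pair Krt5 and Krt14, which overlapped. All are from GRCm38.p6, minus strand, and read 5′ to 3′ towards the gene: Krt10 at chr11:99389365-99389614, Krt2 at chr15:101818170-101818419, Krt5 at chr15:101712906-101713155 and Krt14 at chr11:100206031-100206280. Capitals mark matches to the motifs searched: TATAAA on the gene strand, and on both strands TGANTCA (AP-1), GCCNNNGGC (AP-2), CACCC (KLF family) and TTNNGNAA (C/EBP).
Krt10: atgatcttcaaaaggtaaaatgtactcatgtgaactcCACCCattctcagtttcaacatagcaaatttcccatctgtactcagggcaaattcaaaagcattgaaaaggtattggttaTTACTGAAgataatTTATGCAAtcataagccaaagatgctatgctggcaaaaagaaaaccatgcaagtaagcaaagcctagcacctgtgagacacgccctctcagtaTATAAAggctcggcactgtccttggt
Krt2: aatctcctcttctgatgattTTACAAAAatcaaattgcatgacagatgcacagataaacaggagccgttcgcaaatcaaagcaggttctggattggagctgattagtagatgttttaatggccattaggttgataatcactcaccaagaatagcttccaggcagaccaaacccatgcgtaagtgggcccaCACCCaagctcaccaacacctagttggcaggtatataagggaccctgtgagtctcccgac
Krt5: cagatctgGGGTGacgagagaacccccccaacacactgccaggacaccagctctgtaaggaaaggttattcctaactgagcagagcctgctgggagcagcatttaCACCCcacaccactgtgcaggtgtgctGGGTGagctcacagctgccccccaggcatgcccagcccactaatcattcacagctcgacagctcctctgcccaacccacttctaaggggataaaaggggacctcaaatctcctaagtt
Krt14: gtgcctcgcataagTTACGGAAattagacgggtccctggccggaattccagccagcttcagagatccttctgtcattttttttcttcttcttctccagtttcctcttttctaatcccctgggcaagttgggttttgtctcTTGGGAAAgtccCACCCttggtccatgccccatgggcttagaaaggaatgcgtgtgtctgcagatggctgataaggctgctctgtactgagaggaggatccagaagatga

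CACCC occurred in 4 of the 5 promoters at hand, 3 times in Krt5 and not in Krt77, and in 52.0% of 32841 promoter windows of this length. TTNNGNAA occurred 2 times each in Krt10, Krt14 and Krt77, once in Krt2 and not in Krt5, and in 36.9% of all windows. TATAAA was found 26 bases before the start of Krt10 alone among the 5 (7.59% of all windows). Only exact matches were counted, and near variants of these letters were not. TGANTCA (6.75% of all windows) and GCCNNNGGC (13.7%) matched none of the 5. The motifs searched were those of factors described further on, and a match describes letters, not binding.

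The wound-type keratins were higher in mean TPM with anti-CTLA-4, by 4.15-fold for Krt6b, 2.64-fold for Krt16, 2.34-fold for Krt6a and 1.44-fold for Krt17. None of these 4 genes passed the test. An unadjusted limma p under 0.05 was found for 3 of the 4, and for 4145 of all 15704 genes tested. Krt6b (chromosome 15, 101676024 to 101680293, minus strand, 9 exons) had 8.55, 60.9, 97.2, 13.7 and 115 TPM with the bacterium alone and 232, 183, 193 and 371 TPM with anti-CTLA-4. The groups did not overlap, but the libraries of the bacterium alone spread over a 13.4-fold range, with replicates 1 and 4 lowest. The log2 fold change was 2.57 (SE 0.74), the highest of the 10 keratins (limma adjusted p = 0.0529). Limma called it without replicate 3 or 5 of the bacterium alone (adjusted p = 0.0392 and 0.0328).

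Krt6a (chromosome 15, 101689929 to 101694305, minus strand, 9 exons) followed the same order of libraries in the anti-CTLA-4 group. It had 27.1, 99.8, 132, 41.3 and 121 TPM with the bacterium alone and 208, 144, 165 and 271 TPM with anti-CTLA-4, again without overlap (log2 fold change 1.42 ± 0.47, SE; limma adjusted p = 0.0824). The ratio of Krt6b to Krt6a was 0.315, 0.611, 0.735, 0.331 and 0.948 with the bacterium alone and 1.11, 1.27, 1.17 and 1.37 with anti-CTLA-4. By these separate TPM values, which are uncertain, Krt6b was the less abundant of both genes in all 5 libraries of the bacterium alone. In all 4 others it was the more abundant. The sum of Krt6a and Krt6b depends less on how reads were split between both, but both also share windows with Krt5. This sum was 143 ± 94.3 and 442 ± 142 TPM (SD, n = 5 and n = 4), ranging from 35.7 to 235 and from 328 to 642 TPM.

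Krt16 (chromosome 11, 100246092 to 100248902, minus strand, 8 exons), the type I partner of the Krt6 proteins, had 186, 160, 532, 46.9 and 333 TPM with the bacterium alone and 674, 433, 589 and 963 TPM with anti-CTLA-4. Replicate 3 of the bacterium alone lay within the anti-CTLA-4 range, and replicate 4 was lowest. The log2 fold change was 1.74 ± 0.60 (SE; limma adjusted p = 0.0965), and limma called it without replicate 3 of the bacterium alone (log2 fold change 2.11; adjusted p = 0.0388). Krt17 (chromosome 11, 100256216 to 100261029, minus strand, 8 exons) had 150, 158, 264, 134 and 219 TPM with the bacterium alone and 248, 186, 250 and 385 TPM with anti-CTLA-4. Its groups overlapped (log2 fold change 0.52 ± 0.25, SE; limma adjusted p = 0.209). In each of the 4 wound-type genes, anti-CTLA-4 replicate 4 was the highest library. Exact two-sided permutation tests gave unadjusted p-values of 0.0238 for Krt6b, 0.0317 for Krt6a, 0.0397 for Krt16 and 0.111 for Krt17.

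**Figure D2:**
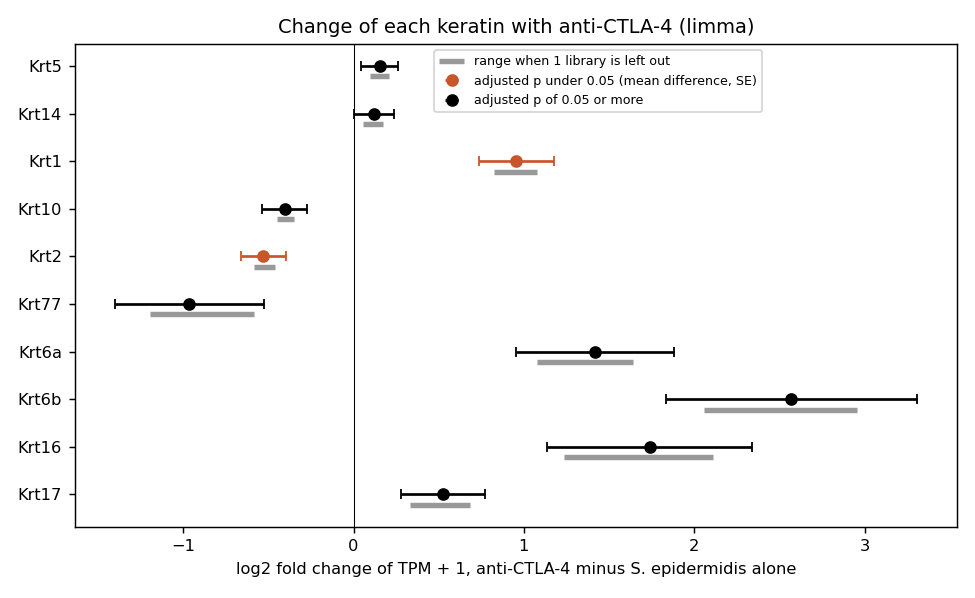
Log2 fold change of TPM + 1 (x axis, anti-CTLA-4 minus bacterium alone) with SE for each keratin, orange where the limma adjusted p is under 0.05, and in grey the range when any 1 library is left out. Krt1 (0.96) and Krt2 (-0.53) passed the test, and Krt6b (2.57), Krt16 (1.74) and Krt6a (1.42) had larger changes with wide errors.

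The 3 classes were also set side by side within each library, with no test. Summed basal keratins overlapped between the groups (5451 to 7177 and 6429 to 7676 TPM), as did summed wound-type keratins (236 to 1025 and 946 to 1990 TPM). Summed suprabasal keratins were 4.44 to 5.12 times the summed basal keratins with the bacterium alone and 2.91 to 3.66 times with anti-CTLA-4. Summed wound-type keratins equalled 5.55%, 8.39%, 14.3%, 4.33% and 12.0% of the basal keratins with the bacterium alone and 21.2%, 14.5%, 16.9% and 25.9% with anti-CTLA-4. The last 2 ranges came close, at 14.3% in replicate 3 of the bacterium alone and 14.5% in anti-CTLA-4 replicate 2. Of all 10 keratins' TPM, wound-type genes made up 1.56% ± 0.782 and 4.46% ± 1.40 (SD, n = 5 and n = 4). Because Krt10 and Krt2 dominate the suprabasal sum, the rise of Krt1 does not show in it. The summed type I keratins stayed at 1.23 to 1.29 times the summed type II keratins in all 9 libraries.

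**Figure D3:**
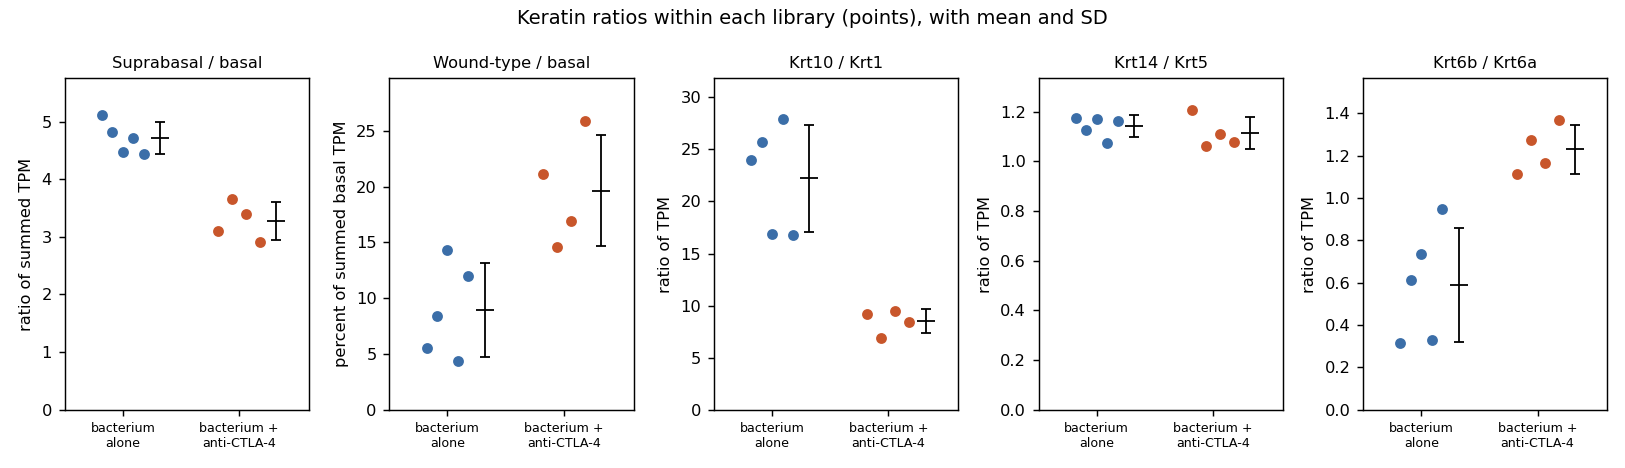
Ratios of keratin TPM within each library (points; mean and SD in black), for the 5 libraries of the bacterium alone (blue) and the 4 with anti-CTLA-4 (orange); the second panel is in percent. Suprabasal to basal (4.44 to 5.12 against 2.91 to 3.66), Krt10 to Krt1 and Krt6b to Krt6a are apart between the groups, wound-type to basal nearly meets, and Krt14 to Krt5 overlaps.

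Several pairs of keratins varied together between libraries of the same group, and others did not. After each group's mean was subtracted, Pearson's r of log2(TPM + 1) over the 9 libraries was 0.98 for Krt6a with Krt6b, 0.95 for Krt2 with Krt10, 0.91 for Krt5 with Krt14 and 0.84 for Krt16 with Krt17. The partners Krt1 and Krt10 had an r of 0.69 and Krt6a and Krt16 one of 0.67, below the 0.74 of Krt2 with the basal Krt5. Within the suprabasal class, Krt1 had an r of 0.59 with Krt2 and of -0.084 with Krt77. Krt16 also followed the basal Krt14 (r = 0.88), with which it shares sequence. Krt10 and Krt2 did not follow the Krt6 genes (r between -0.24 and -0.12), and Krt77 went against Krt6a and Krt6b (r of -0.80 and -0.78). These are descriptions over few libraries that share a TPM total, and Krt6a and Krt6b share sequence, so their reads may not be separated.

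**Figure D4:**
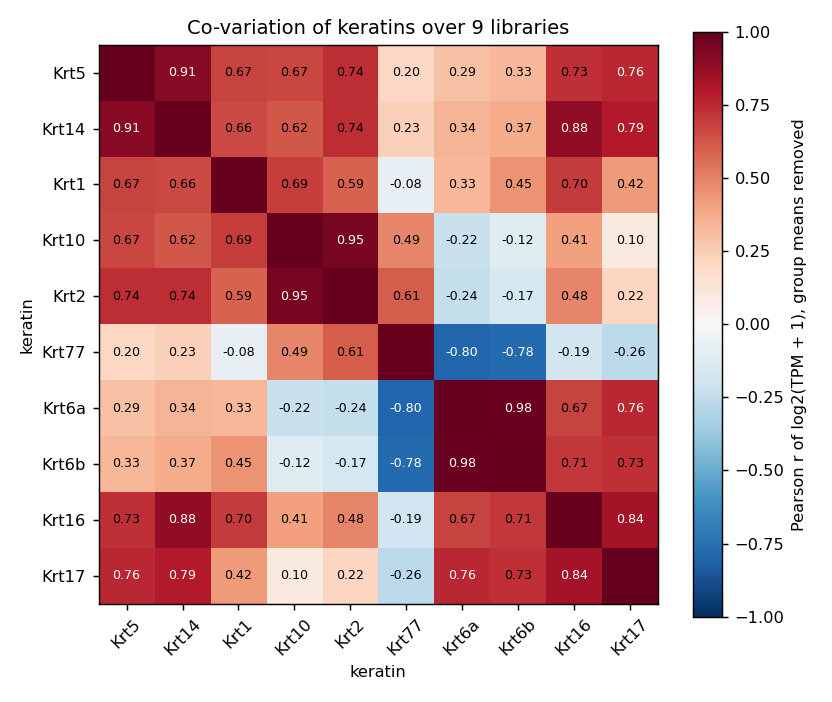
Pearson's r of log2(TPM + 1) between each pair of keratins over 9 libraries after subtracting group means (colour from -1 in blue to 1 in red, value in each cell). The highest values are Krt6a with Krt6b (0.98), Krt2 with Krt10 (0.95) and Krt5 with Krt14 (0.91), and the lowest are Krt77 with Krt6a and Krt6b.

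Genes outside the 10 were ranked by the same measure. The closest to Krt14 were Klk6, a kallikrein protease (r = 0.97), Plbd1 (0.97) and Exoc3l4 (0.96). For Krt10 they were Thop1, a peptidase (0.99), Klk9, another kallikrein (0.96), and the heparanase gene Hpse (0.96). Krt16 was followed most closely by the gap junction gene Gjb2 (0.97), the DNA replication gene Mcm5 (0.97) and Sprr2e, a cornified envelope precursor with close relatives in the genome (0.96). For Krt6a they were Ogfod1 (0.96), the macrophage scavenger receptor gene Msr1 (0.96) and the long noncoding RNA Morrbid (0.95). They are the highest of 15704 genes over only 9 libraries, so they are given as a description. Of these 12 genes, Msr1 (2.73 and 7.72 mean TPM) and Morrbid (2.62 and 4.15) rose with anti-CTLA-4 in the limma fit (adjusted p = 0.00220 and 0.0128). A rise was called for 7.16% of all genes tested.

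Among other keratins, the inner root sheath keratin Krt73 fell. Of 17 other soft epithelial keratins, 8 passed the filter and none of these was called by limma, though 7 had a negative log2 fold change. A negative value was found for 8325 of all 15704 genes tested. An unadjusted limma p under 0.05 was found for 5 of the 8, and for 4145 of all 15704 genes tested. One was called lower when replicate 3 or 5 of the bacterium alone, or anti-CTLA-4 replicate 2 or 3, was left out. Krt24, a type I keratin, had 233 ± 53.4 and 146 ± 30.6 TPM (SD, n = 5 and n = 4; limma adjusted p = 0.0505). Krt78 had 88.6 and 62.9 mean TPM, Krt23 35.6 and 24.7, and Krt80 108 and 86.5. In limma, 3 of the 8 were called lower when the 50 most abundant genes were left out of the total, and 5 after quantile normalization. Those settings called 1306 and 1429 of all 15704 genes lower, against 704 in the main fit. Of 9 keratins of the inner root sheath and companion layer of the hair follicle, 4 passed the filter. Of these, Krt73 fell from 12.6 ± 3.16 to 6.16 ± 1.38 TPM (limma adjusted p = 0.0128), where 4.48% of all genes tested fell. Krt75, the companion layer keratin, had 4.35 and 4.09 mean TPM, and the inner root sheath keratins Krt25 (1.60 and 0.501) and Krt71 (1.14 and 0.513) were low. Of 16 hair shaft keratins only Krt84 passed the filter (4.37 and 6.82 mean TPM; limma adjusted p = 0.153).

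Of 14 desmosome and plakin genes, which anchor keratin filaments at cell contacts, 10 fell, none rose and 4 were not called (Dsg1b, Cdsn, Dsc2 and Dsg3), with a median log2 fold change of -0.32, where 4.48% of all genes tested fell. The desmosomal cadherin Dsg1a fell (275 ± 18.2 and 197 ± 23.2 TPM; SD, n = 5 and n = 4; limma adjusted p = 0.00931), and so did Dsc3 (192 ± 6.69 and 155 ± 11.6 TPM). The plaque protein Pkp1 fell from 188 ± 9.02 to 147 ± 12.0 TPM and periplakin, Ppl, from 135 ± 10.8 to 104 ± 7.10 TPM. The count was 6 when replicate 1 of the bacterium alone, or anti-CTLA-4 replicate 1 or 2, was left out. It was 0 with each of the skeletal muscle, hair follicle and basal keratinocyte covariates, which left 17, 1 and 88 calls lower over all genes.

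Of 14 tested genes of the differentiating layers, where Krt1, Krt10 and Krt2 are made, 8 fell, none rose and 6 were not called (median log2 fold change -0.39). Of all genes tested, 4.48% fell. The cornified envelope gene Lor (1440 and 1000 mean TPM) and Ivl (173 and 128), chosen after their values were seen, were among those not called, as was Tgm3 (12.6 and 12.7). With the mean of skeletal muscle, hair follicle or basal keratinocyte genes as a covariate, 1, 0 and 1 of the 14 were called lower, beside 17, 1 and 88 of all genes. Grhl3, a transcription factor of epidermal differentiation, fell, with 35.4 ± 1.09 and 21.9 ± 1.41 TPM (SD, n = 5 and n = 4; limma adjusted p = 0.00148). Notch1, the receptor that drives exit from the basal layer, fell from 41.4 ± 2.62 to 32.2 ± 2.57, the transcription factor Ovol1 from 45.9 ± 4.68 to 32.8 ± 4.20 and Dmkn, which encodes a secreted protein of the upper layers, from 725 ± 88.8 to 529 ± 50.3 TPM. With the bacterium alone, leaving out replicate 1 gave a count of 5 and leaving out replicate 2 or 4 a count of 4; with anti-CTLA-4, leaving out replicate 1 gave 3 and replicate 4 gave 4.

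Of 14 basal keratinocyte and hemidesmosome genes, the anchoring collagen Col17a1 fell (181 ± 11.5 and 148 ± 12.4 TPM; SD, n = 5 and n = 4; limma adjusted p = 0.0319), where 4.48% of all genes tested fell. The other 13 were not called. Among these, Trp63, the master regulator of stratified epithelium, had 89.7 and 76.3 mean TPM, Itgb1 had 36.1 and 42.2, and Itga3 had 18.2 and 15.9. The call of Col17a1 ended when replicate 1, 2 or 4 of the bacterium alone, or replicate 1 or 2 of anti-CTLA-4, was left out.

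Of 15 factors known to act on keratin transcription or stability, 4 fell and none rose, where 4.48% of all genes tested fell. Cebpa fell (336 ± 17.0 and 269 ± 24.0 TPM; SD, n = 5 and n = 4; limma adjusted p = 0.0212), Tfap2c, an AP-2 factor, from 40.4 ± 0.938 to 34.2 ± 2.73, Klf4 from 546 ± 36.5 to 446 ± 35.5 and Fosl1, an AP-1 subunit, from 5.90 ± 1.06 to 4.04 ± 0.385 TPM. Klf4 is also in the list of the differentiating layers and was counted among the genes that fell there. The count of factors called lower was 0 with each of the same 3 covariates, which left few genes called lower over all genes. Leaving out 1 library at a time gave counts of 0 to 3. The count was 0 when replicate 1 of the bacterium alone or anti-CTLA-4 replicate 2 or 4 was missing, 1 when replicate 2 or 5 of the bacterium alone or anti-CTLA-4 replicate 1 was missing, and 2 when replicate 3 or 4 of the bacterium alone was missing.

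Of 21 genes associated with wounded or inflamed epidermis, 17 passed the filter, 4 rose, none fell and 13 were not called, with a median log2 fold change of 0.59. Of all genes tested, 7.16% rose. The urokinase receptor gene Plaur rose (5.17 ± 0.847 and 9.28 ± 0.893 TPM; SD, n = 5 and n = 4; limma adjusted p = 0.00450), the protease Mmp9 from 5.05 ± 1.34 to 9.74 ± 2.05, the matrix protein Tnc from 22.8 ± 5.86 to 39.8 ± 4.76 and Lcn2, an antimicrobial iron-binding protein, from 19.6 ± 10.5 to 53.4 ± 18.7 TPM. Some genes of this list, Plaur, Mmp9 and Lcn2 among them, are also made by leukocytes. Which cells made each transcript was not determined in bulk skin. The 13 genes that were not called, some named here after their values were seen, had log2 fold changes from -0.16 (Tgfa) to 2.70 (S100a8). The alarmin S100a8 had 476 ± 462 and 1904 ± 1018 TPM (SD, n = 5 and n = 4; limma adjusted p = 0.0821) and its partner S100a9 had 203 and 630 mean TPM, while Sprr1b had 145 and 159. With the skeletal muscle, hair follicle and basal keratinocyte covariates, 0, 0 and 1 genes of the list were called higher, beside 87, 1 and 489 of all genes.

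**Figure D5:**
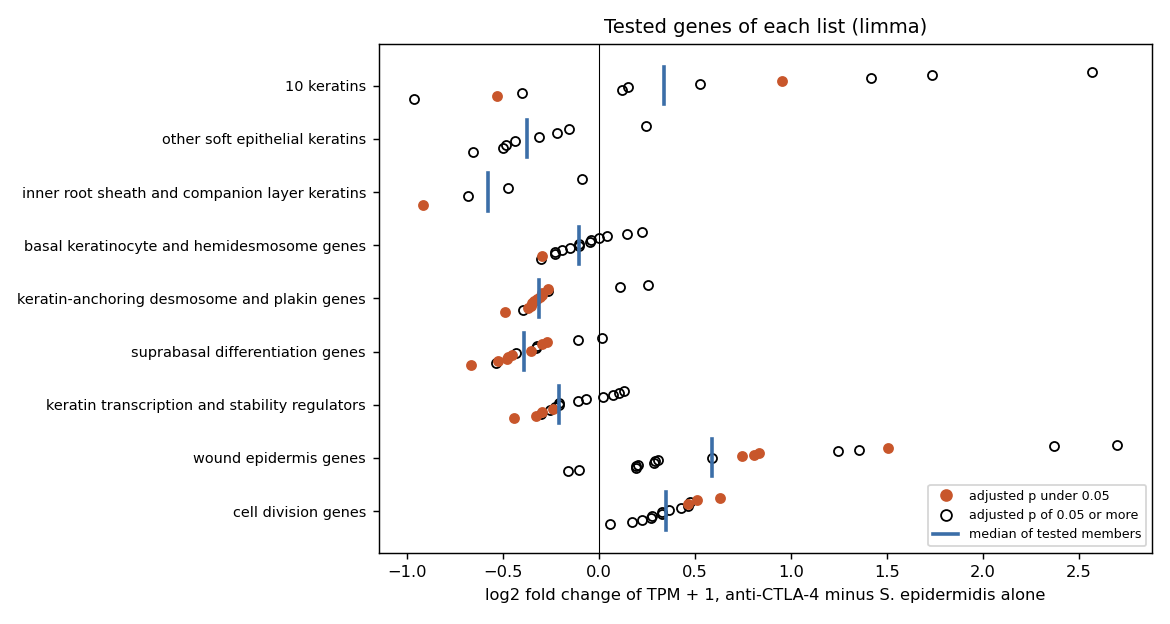
Log2 fold change of TPM + 1 (x axis, anti-CTLA-4 minus bacterium alone) of each tested gene in the 10 keratins and 8 other lists (rows), orange where the limma adjusted p is under 0.05, with the median of each list in blue. In the desmosome list 10 of 14 genes fell and in the differentiation list 8 of 14 (4.48% of all genes tested fell), wound epidermis genes lie mostly above 0, and the 10 keratins spread to both sides.

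Markers of other cells in the ear were measured beside the keratins, and several of them differed between the groups. Over all genes tested, 7.16% rose and 4.48% fell. Of 8 leukocyte markers 7 rose, Itgam, Cd8a, Ptprc and Cd3e with the smallest p, and their summed TPM was 289 to 416 with the bacterium alone and 453 to 733 with anti-CTLA-4. Of 14 hair follicle markers 9 were tested and 4 fell (Hoxc13, S100a3, Msx2 and Foxn1), with sums of 131 to 154 and 99.3 to 127 TPM. That count was 2 when replicate 1, 2 or 4 of the bacterium alone or anti-CTLA-4 replicate 2 was missing, and 1 when anti-CTLA-4 replicate 1 or 4 was missing. Of 8 skeletal muscle markers Pvalb fell, a call that leaving out any 1 of 6 libraries ended, with sums of 1190 to 1811 and 1040 to 1445 TPM. No gene of these lists was at 0 in every library. The follicle also makes Krt6a, Krt6b, Krt16 and Krt17, and the part of these cells in the keratin values was not tested. Fits with a marker mean as covariate cannot decide it, because the hair follicle markers themselves differed between the groups. Over all genes, the hair follicle covariate left 1 call higher and 1 lower, against 1124 and 704 without it. With the mean of the hair follicle markers as a covariate, the log2 fold change was 1.99 for Krt6b, 1.25 for Krt16, 0.95 for Krt6a and 0.16 for Krt17. In the same fit, neither Krt1 (log2 fold change 0.81; limma adjusted p = 0.399) nor Krt2 (-0.48; limma adjusted p = 0.435) was called. With the mean of the basal keratinocyte list as a covariate, Krt1 had a log2 fold change of 0.62 and Krt2 one of -0.57 (limma adjusted p = 0.127 and 0.103).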

How the data were processed

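RNA sequencing of whole ear skin gave 9 libraries, 5 with Staphylococcus epidermidis and 4 with the bacterium and anti-CTLA-4. Groups and replicate numbers come from the sample titles. Per the labels' protocols, libraries were made from total RNA of a small piece of skin with a Tecan kit and read on an Illumina sequencer. The authors deposited TPM per gene and library, per the file headers. The submitters' processing notes name STAR, HOMER, DESeq2 and the build mm10. Versions, roles and annotation were not given in the sources used here. The listed genes summed to between 696393 and 728933 TPM per library, and the ribosomal entries Rn45s and Mir6236 took 30.6% to 40.2% of this. TPM keeps no read totals, so the depth is unknown and no counting intervals are given.

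The 15704 genes that reached 1 TPM in 4 or more libraries were log-transformed as log2(TPM + 1) and tested by limma 3.58.1 (R 4.3.3) using empirical Bayes moderation with a mean trend and no covariate, two-sided, with Benjamini-Hochberg adjustment over all genes tested and a threshold of 0.05. The pseudocount of 1 makes fold changes of low genes too small. Class sums and ratios were described per library with no test. The fit was tested on simulated data. Coding sequences come from GENCODE M21 (GRCm38, the same assembly as mm10) and promoters from RefSeq (GRCm38.p6); 5 of the 10 genes had a promoter entry. Keratins and gene lists were chosen with earlier results of these data known. Some lists share genes, among them Klf4, Trp63, Krt25 and Krt71, so their counts are not separate. Named are all 10 keratins, for each list described up to 4 tested genes, those of smallest p, and the 3 genes closest to each of Krt14, Krt10, Krt16 and Krt6a; other genes named were chosen after their values were seen. No pairing of libraries by shared replicate number was seen in the values, but so few libraries cannot exclude it (closing section).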

Additional observations from a re-analysis of the deposited data

Results flagged for a closer look

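Of 72 sets of values checked (each keratin, sum and ratio in each group), 2 held a library far from the others, and chance alone gives about 1 in 20. Krt77 had 47.3 TPM in replicate 1 of the bacterium alone, against 7.94 to 18.3 TPM in the other 4 libraries of that group. That library also had the lowest Krt6a and Krt6b and the highest Krt10 and Krt2. The ratio of Krt1 to Krt5 was 0.611 in anti-CTLA-4 replicate 2, against 0.395 to 0.427 in the other 3 libraries of that group. Leaving that library out gave Krt1 a log2 fold change of 0.83 (limma adjusted p = 0.0621).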

How the results depend on the processing

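Over all genes, leaving out each library in turn gave 706 to 1094 genes higher and 337 to 703 lower. The largest losses were without anti-CTLA-4 replicate 3 among genes higher (706), and among genes lower without the bacterium-alone replicates 1, 2 and 4 (414, 352 and 397) or replicates 1, 2 and 4 of anti-CTLA-4 (337, 406 and 377). Median scaling called 1313 genes lower, quantile normalization 1429, and a total computed without the 50 top genes 1306. With covariates the fit called 87 genes higher and 17 lower (skeletal muscle), 1 and 1 (hair follicle) and 489 and 88 (basal keratinocyte list). Among the 10 keratins, leaving out 1 library gave 0 to 3 called higher and 0 to 1 called lower, with 3 higher without replicate 3 of the bacterium alone and 2 without its replicate 5. Each of the 3 covariates gave 0 higher and 0 lower. A minimum of 5 TPM gave 2 higher and 2 lower, quantile normalization 2 and 0, and no filter 0 lower. Chosen after seeing the data, a fit on protein-coding genes gave 3 higher and 0 lower, and variances without a mean trend gave 2 lower. Those fits called 1244 higher and 813 lower of 14023 genes, and 1111 and 670 of 15704. Quantile normalization turned Krt10 to a log2 fold change of 0.016 and Krt14 to -0.049. It gives every library the same set of values, so the most abundant genes can move only by changing rank. No other keratin changed sign under any alternative run. With the replicate block, in which replicate 5 of the bacterium alone has no partner, limma called 593 genes higher and 88 lower, and 0 keratins higher and 0 lower (Krt1 adjusted p = 0.0783, Krt2 adjusted p = 0.178). Same-numbered libraries correlated between -0.093 and 0.018 in their deviations from the group means, and none correlated best with its own number. No pairing by number was seen, but so few libraries cannot exclude it. TPM without read totals limits what can be said of the low values of Krt77.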

Other observations

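Of 14 cell division genes tested, all 14 had a positive log2 fold change and 3 rose: Birc5, a mitotic regulator, from 10.4 ± 1.76 to 15.3 ± 3.06 TPM (SD, n = 5 and n = 4; limma adjusted p = 0.0441), the cyclin Ccnb1 from 6.21 ± 1.58 to 10.1 ± 1.89 TPM, and the kinase Cdk1 from 6.65 ± 1.14 to 9.54 ± 1.50 TPM. Over all 15704 genes tested, 7.16% rose and 7379 had a positive log2 fold change. Plk1 had 5.65 and 8.32 mean TPM and was not called. No cell division gene was called when replicate 1, 2 or 4 of the bacterium alone, or any 1 of the 4 anti-CTLA-4 libraries, was left out. Which cells were dividing was not determined. None of 7 fibroblast, 5 endothelial, 5 melanocyte and 5 tested cartilage markers was called by limma. An unadjusted limma p under 0.05 was found in 1, 2, 2 and 1 of them, and in 4145 of all 15704 genes tested. Of 8 sebaceous gland markers Scd1 fell from 1701 ± 310 to 1172 ± 140 TPM (limma adjusted p = 0.0447), where 4.48% of all genes tested fell. That call ended in 7 of the 9 fits with 1 library fewer. The 5 Merkel cell markers summed to at most 2.47 TPM in any library and none passed the filter.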
